A study of Mus musculus with 16 samples.

Results

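The genes described here encode the signalling subunits of the B cell antigen receptor, the coreceptors and Fc receptors that tune it, and one kinase that it activates. They are 9 genes chosen by name, Cd79a, Cd79b, Cr2, Cd22, Cd72, Ms4a1, Fcer2a, Fcgr2b and Btk, of 43432 genes in the expression table. Their values were read from the authors' normalized counts, and regions covered in Ago2 CLIP were taken on the strand of each gene. The study looked for targets of the microRNAs miR-221-3p and miR-222-3p in activated mouse B cells. It holds 16 libraries of splenic B cells, labelled strain C57B6L/J. RNA-seq of total RNA covers 4 KO and 4 Flox libraries, and Ago2 HITS-CLIP, which sequences RNA crosslinked to the Argonaute 2 protein, covers 4 of each. The KO group is read here, from the series title, as lacking miR-221 and miR-222, and Flox as the control with the floxed locus; the expression table names the Flox columns WT. Which Cre deleted the locus, in which cells, and whether each library is 1 mouse is not given in the labels used here, so p-values measure only the spread between these libraries. Every library came from cells cultured for 4 days with an antibody to CD40 at 500 ng/ml. The medium also held IL-21 at 10 ng/ml plus 25 ng/ml of IL-4. This mixture stands in for T cell help. No unstimulated library was analysed here, and the culture contains no antigen receptor ligand according to the labels.

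The antigen receptor of a B cell pairs a membrane immunoglobulin, which binds antigen, with the CD79A and CD79B chains, which carry the signal. Phosphorylated tails of these chains recruit SYK, and BTK then helps to activate phospholipase C. Complement receptor 2 lowers the threshold for signalling, whereas CD22, CD72 and the Fc receptor FCGR2B bring phosphatases to the receptor and dampen it. In the B cell compartment the low-affinity IgE receptor FCER2A, or CD23, is known to be induced by IL-4.

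Both microRNAs named in the study share a seed, the bases 2 to 8 that pair with targets, and their sequences are shown side by side for that reason. They lie on chromosome X, minus strand, at chrX:19146307-19146329 and chrX:19146901-19146923 in GRCm38.p6, with sequences from RefSeq and the seed GCUACAU in capitals.
mmu-miR-221-3p: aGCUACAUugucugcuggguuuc
mmu-miR-222-3p: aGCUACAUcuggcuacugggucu
Total RNA-seq says little about these short RNAs. The Mir221 row was at 0 reads throughout KO, while Flox 1 to 4 held 0, 0, 3 and 1 of them, and Mir222 was at 0 in all 8 libraries, so the labels could not be checked from them.

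The RNA-seq libraries held between 22947689 and 39616596 reads assigned to genes. The first principal component, with 33.5% of the variance, put KO 1 at -38.0 and KO 3 at -35.6, apart from KO 2 at -15.3, KO 4 at 7.47 and the Flox libraries. Values without KO 1 and KO 3 therefore stand beside the fold changes of the members and of the pathway genes named below. KO 1 and KO 3 were not alike on the second component, where KO 1 lay at 20.1, KO 2 at 36.1 and KO 3 at -40.5. Summed B cell markers ranged from 72001.7 to 97206.0 normalized counts in KO, with KO 3 lowest, and from 90134.6 to 95922.6 in Flox. T cell markers summed to 1587.0 to 1943.9 in KO and 1416.4 to 1625.1 in Flox, almost all of it Lck, and only 1 of the 7 listed genes passed the filter on low values. Myeloid markers summed to 72.0 to 102.9 in KO and 47.0 to 91.4 in Flox, with S100a8 at 0 in all libraries. NK cell markers, with Ncr1 at 0 throughout, summed to 157.8 to 205.8 in KO and 94.7 to 143.6 in Flox without overlap; nearly all of it was Prf1. Dendritic cell markers, almost all of it Zbtb46 and Flt3, lay lower in KO, at 3710.1 to 4289.9 against 4396.1 to 5103.5 in Flox, again without overlap. Siglech, Xcr1 and Clec9a were at 12.7 or less in every library. The log2 fold change was -0.32 for Flt3 and -0.15 for Zbtb46, with adjusted p of 0.239 and 0.406 in the limma test described below. Among all genes tested, the groups did not overlap for 4.18% higher and 3.79% lower in KO. Erythroid markers reached at most 5.8, with Hba-a1 and Hbb-bs at 0. Plasma cell markers summed to 30350.0 to 43110.6 in KO and 32133.2 to 43579.9 in Flox. The part of other cells in the results was not tested, and in bulk RNA fewer cells of a type cannot be told from less RNA per cell.

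None of the 9 members passed the test for a difference between KO and Flox at an adjusted p of 0.05 (limma on log2(normalized count + 1), two-sided, Benjamini-Hochberg over 13091 genes). In all, 9 of those genes did, or 0.0687%. Cd22 and Fcer2a had the smallest p-values, with Cd22 1.20-fold and Fcer2a 1.23-fold higher in KO before adjustment. Members with an unadjusted p under 0.05 and higher values in KO were thus 2 of 9, against 7.74% of all genes. The log2 fold change was above 0 for 8 of the 9, against 48.5% of all genes. Without KO 1 and KO 3 it was above 0 for 6 members, against 50.6% of all genes, and without KO 4 alone also for 6. The members' median log2 fold change was 0.12, against -0.01 over all genes tested, and it was 0.06 without KO 1 and KO 3. DESeq2 on the reads recovered from the deposited values called none of the members and 213 genes in all, or 1.76% of those with an adjusted p. In the authors' deposited table no member had an FDR under 0.05, where 1.58% of genes with an FDR did. All 9 members passed the filter on low values.

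**Figure D1:**
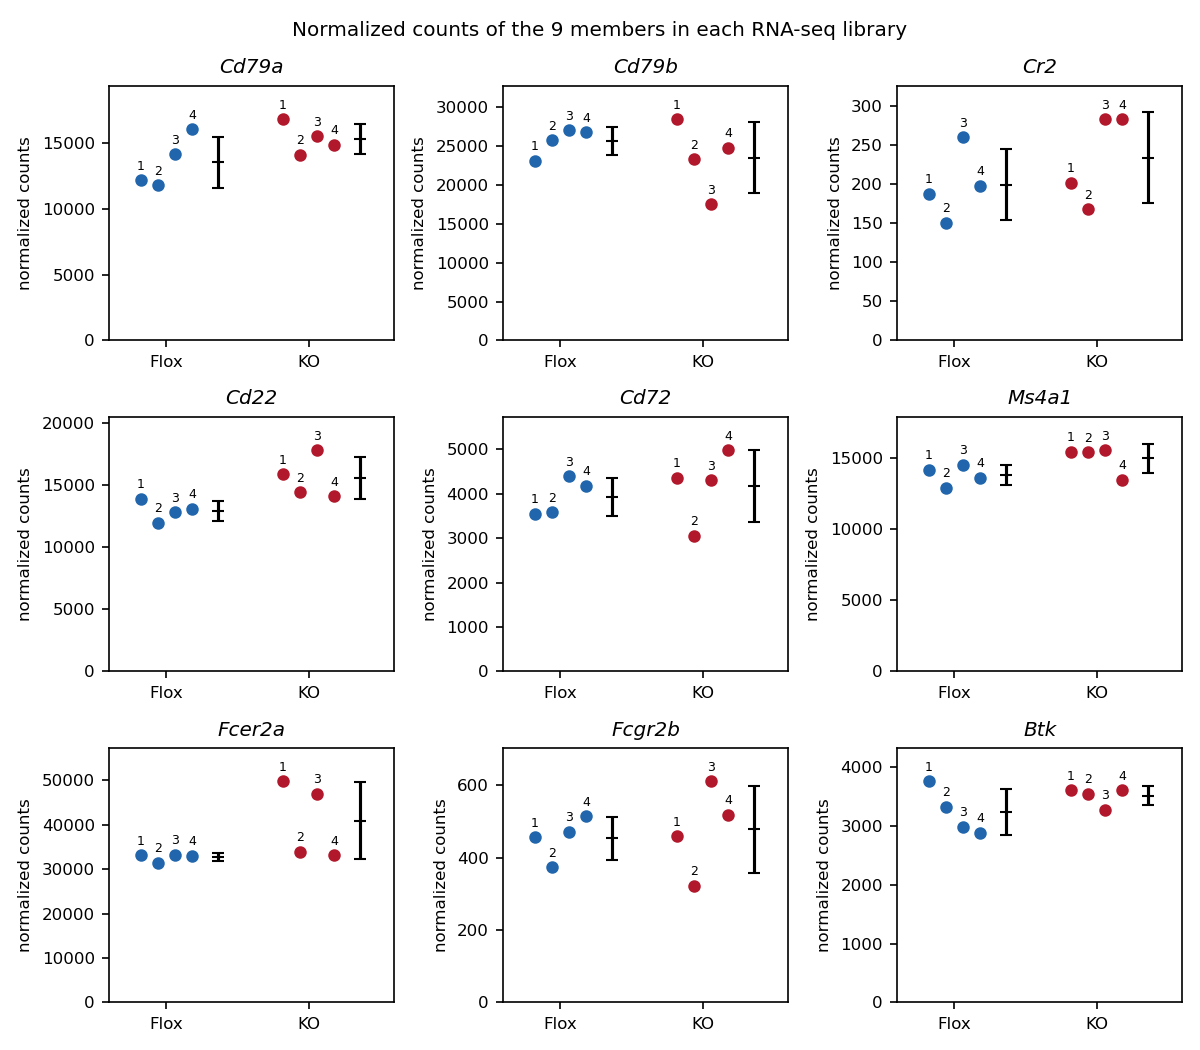
Normalized counts (vertical axis, from 0, own scale per gene) of the 9 members in the 4 Flox (blue) and 4 KO (red) libraries, with the library number above each point and the mean and SD in black. Only for Cd22 do all KO points, from 14066.8, lie above all Flox points, up to 13871.6, and in Fcer2a KO 1 and KO 3 stand above the other 6 libraries.

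The signalling chains come first. Cd79a (ENSMUSG00000003379, GRCm38 chr7:24897381-24902197, plus strand) encodes the CD79A chain. Its normalized counts were 16841.9, 14134.8, 15529.0 and 14891.4 in KO 1 to 4, against 12185.7, 11818.6, 14172.6 and 16058.7 in Flox 1 to 4. Flox 4 lay above 3 of the KO libraries, and the groups overlapped. The mean was 15349 ± 1147 (SD, n = 4) in KO and 13559 ± 1961 (SD, n = 4) in Flox. The log2 fold change was 0.19 (SE 0.11, 95% interval -0.05 to 0.43) with a limma adjusted p of 0.4085.

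Cd79b (ENSMUSG00000040592, chr11:106311341-106314762, minus strand) encodes the partner chain. It was the only member with a negative log2 fold change. KO 1 to 4 gave 28440.1, 23298.5, 17484.2 and 24763.9 normalized counts, and Flox 1 to 4 gave 23102.4, 25762.7, 26997.5 and 26769.0. KO held both the highest library, KO 1, and the lowest, KO 3. The mean was 23497 ± 4555 (SD, n = 4) in KO and 25658 ± 1786 (SD, n = 4) in Flox, a log2 fold change of -0.15 (SE 0.14, 95% interval -0.44 to 0.15, limma adjusted p 0.5982).

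Cd79a and Cd79b encode chains that pair as a dimer, and the likeness of their counts across libraries was low. As a description, Pearson's r between their log2 values over the 8 libraries was 0.05, Spearman's rho was 0.38, and r was 0.38 without KO 1 and KO 3. The log2 ratio of Cd79a to Cd79b was -0.76, -0.72, -0.17 and -0.73 in KO 1 to 4, against -0.92, -1.12, -0.93 and -0.74 in Flox 1 to 4. KO 3 stood apart from the other libraries in this ratio. These libraries share depth and composition, so no p is given for correlations between genes.

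Btk (ENSMUSG00000031264, chrX:134542336-134583570, minus strand) encodes the Tec family kinase downstream of the receptor. Its counts were 3614.9, 3554.9, 3279.0 and 3614.5 in KO 1 to 4, against 3764.9, 3330.5, 2992.0 and 2887.6 in Flox 1 to 4. Flox 1 was the highest library and the groups overlapped. Means of 3516 ± 160 (SD, n = 4) in KO and 3244 ± 396 (SD, n = 4) in Flox gave a log2 fold change of 0.12 (SE 0.09, 95% interval -0.08 to 0.33, limma adjusted p 0.5286).

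Among the inhibitory coreceptors, Cd22 (ENSMUSG00000030577, chr7:30865402-30880342, minus strand), a sialic acid binding lectin that recruits the phosphatase SHP-1, had the smallest unadjusted p. KO 1 to 4 gave 15847.2, 14419.1, 17789.4 and 14066.8 normalized counts, and Flox 1 to 4 gave 13871.6, 11957.3, 12789.0 and 13069.9. Every KO library lay above every Flox library, by a narrow margin between KO 4 and Flox 1. Cd22 was the 1 member of 9 whose groups did not overlap in this direction, which 4.18% of all genes tested also showed. The mean was 15531 ± 1691 (SD, n = 4) in KO and 12922 ± 790 (SD, n = 4) in Flox. Its log2 fold change was 0.26 (SE 0.09, 95% interval 0.05 to 0.47), with an unadjusted p of 0.0177 and an adjusted p of 0.267 in limma. Without KO 1 and KO 3 the value was 0.14 (limma p 0.122), a fit in which 2.73% of genes had an unadjusted p under 0.05 and higher values in KO. In the authors' deposited table its FDR was 0.1639, the lowest of the members.

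Cd72 (ENSMUSG00000028459, chr4:43446462-43454628, minus strand), a C-type lectin that also recruits SHP-1, differed little. Its counts were 4359.0, 3052.8, 4308.0 and 4977.2 in KO 1 to 4, against 3547.7, 3587.9, 4389.6 and 4178.9 in Flox 1 to 4. KO 2 was the lowest and KO 4 the highest of the 8. Its log2 fold change was 0.07 (SE 0.14, 95% interval -0.24 to 0.38, limma adjusted p 0.8218), and its sign turned when KO 4 was left out (-0.020). The Tesk1 gene overlaps 1603 nt of Cd72 on the other strand, and whether reads were counted by strand is not given in the sources used here.

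Fcgr2b (ENSMUSG00000026656, chr1:170958617-170976547, minus strand) encodes the inhibitory IgG receptor. KO 1 to 4 gave 459.8, 322.1, 611.6 and 519.2 normalized counts, and Flox 1 to 4 gave 456.1, 373.4, 472.4 and 514.5. KO held the lowest library, KO 2, and the highest, KO 3. KO minus Flox was 0.05 on the log2 scale (SE 0.18, 95% interval -0.36 to 0.45, limma adjusted p 0.9233), and it was -0.085 without KO 3.

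Cr2 (ENSMUSG00000026616, chr1:195136811-195176716, minus strand), a complement receptor, had the fewest reads of the members, down to 129 in KO 2. Its normalized counts were 201.9, 168.2, 283.3 and 283.5 in KO 1 to 4, against 187.8, 150.9, 260.5 and 198.4 in Flox 1 to 4. The groups overlapped, with KO 3 and KO 4 highest. The mean was 234 ± 58.4 (SD, n = 4) in KO and 199.4 ± 45.5 (SD, n = 4) in Flox, a log2 fold change of 0.22 (SE 0.21, 95% interval -0.25 to 0.69, limma adjusted p 0.6099).

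Ms4a1 (ENSMUSG00000024673, chr19:11249675-11266241, minus strand) encodes CD20, a surface protein of B cells. KO 1 to 4 gave 15445.6, 15418.0, 15561.4 and 13496.8 normalized counts, and Flox 1 to 4 gave 14192.5, 12926.7, 14532.7 and 13614.4. KO 1 to KO 3 lay close together above all Flox libraries, and KO 4 lay among the Flox values. This gave a log2 fold change of 0.12 (SE 0.08, 95% interval -0.06 to 0.29, limma adjusted p 0.491).

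Fcer2a (ENSMUSG00000005540, chr8:3681737-3694175, minus strand), the IgE receptor, had the largest positive log2 fold change of the members. Its counts were 49804.7, 33894.1, 46944.3 and 33150.9 in KO 1 to 4, against 33151.3, 31435.1, 33235.1 and 32993.6 in Flox 1 to 4. KO 1 and KO 3 were far above the rest, while KO 2 and KO 4 sat at or just above the Flox values. The mean was 40949 ± 8659 (SD, n = 4) in KO and 32704 ± 852 (SD, n = 4) in Flox. The log2 fold change was 0.30 (SE 0.14, 95% interval 0.00 to 0.60), with an unadjusted p of 0.0495 and an adjusted p of 0.330 in limma. Without KO 1 and KO 3 it was 0.04 (limma p 0.673), so the difference between the group means rested on those libraries.

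**Figure D2:**
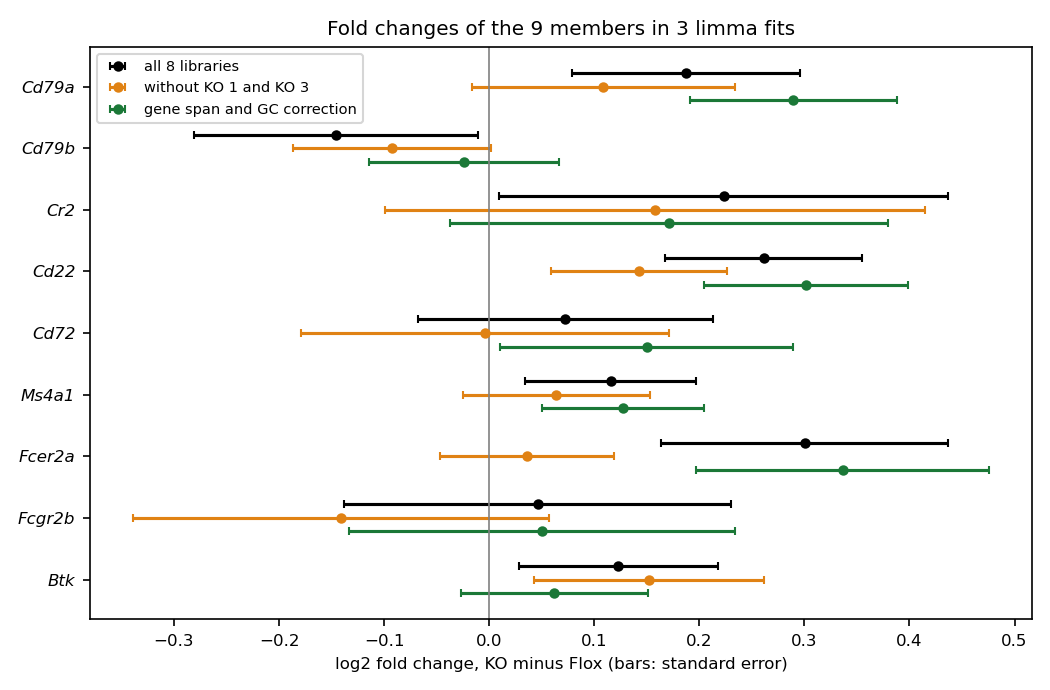
Log2 fold change of each member, KO minus Flox (horizontal axis; bars are standard errors), in 3 limma fits: all 8 libraries (black), without KO 1 and KO 3 (orange) and after adjusting for span and GC percent of the genes (green). Fcer2a moves from 0.30 to 0.04 and Cd22 from 0.26 to 0.14 without KO 1 and KO 3.

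Without KO 1 and KO 3 the log2 fold change of Cd79a was 0.11, of Cd79b -0.09, of Btk 0.15, of Cr2 0.16, of Ms4a1 0.06, of Cd72 -0.0041 and of Fcgr2b -0.14. Cd22 and Fcer2a are given above, and none of the 9 had an unadjusted p under 0.05 in that fit. Adjusting each library for the span and GC percent of its genes changed which members had small p-values. Cd79a then had a log2 fold change of 0.29 (SE 0.10, unadjusted limma p 0.014), Cd22 0.30 and Fcer2a 0.34. Cd79b moved to -0.02 (SE 0.09). None of these passed after adjustment over all genes.

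Across the 8 libraries, the pair of members with the highest Pearson's r on the log2 scale was Cd22 and Fcer2a (0.864, Spearman's rho 0.810, and r of 0.853 without KO 1 and KO 3). The order of pairs depended on the measure. By rho Ms4a1 and Fcer2a came first (0.952), and without KO 1 and KO 3 the highest r was between Cd72 and Fcgr2b (0.873). Cr2, Cd72 and Fcgr2b formed a second group of pairs, with r of 0.807 for Cr2 and Cd72, 0.806 for Cr2 and Fcgr2b and 0.802 for Cd72 and Fcgr2b. The lowest r, -0.639, was between Cd79b and Cd22. Without KO 1 and KO 3 the lowest was between Cd79b and Btk, at -0.913, against -0.144 over all 8 libraries. Over all genes tested, those with the profile most like Cd22 were Gorasp2 (0.993) and Ptpn6 (0.989), the gene of the SHP-1 phosphatase that CD22 recruits. With Fcer2a these were Bak1 (0.987) and Rnf44 (0.976), and both values fell without KO 1 and KO 3, to 0.785 and 0.600. For Cd79b they were Lin37 (0.985) and Marcks (0.971, or 0.835 without KO 1 and KO 3), and for Cd79a Sipa1 (0.959) and Zdhhc18 (0.956). Cr2 was most like Sh3d19 (0.948) and Ms4a4c (0.939), Cd72 like Zcchc24 (0.983), and Fcgr2b like Cpm (0.976) and Stambpl1 (0.958). Ms4a1 paired with Rfk (0.972) and Snora28 (0.965), and Btk with Slamf6 (0.967) and Pitpna (0.958). With 8 libraries and 13091 genes, high values are common: 173 genes had an r above 0.9 with Fcer2a and 132 with Cd22.

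Cd22 and Fcer2a had the smallest p-values and the highest r over all 8 libraries, so 1 window around an annotated start of each is shown, 250 bases before it to 50 after, from RefSeq (GRCm38.p6, minus strand). The Cd22 window is chr7:30878979-30879278, with capitals marking a match to the EBF core TCCCNNGGGA and one to the E-box CAGGTG on the opposite strand. The Fcer2a window, at the second of its 3 starts, is chr8:3690812-3691111, with capitals marking the STAT6 motif TTCNNNNGAA and 2 E-boxes. It is the only Fcer2a window with a match: those at the other starts, chr8:3694125-3694424 and chr8:3690341-3690640, held none of the motifs searched.
Cd22: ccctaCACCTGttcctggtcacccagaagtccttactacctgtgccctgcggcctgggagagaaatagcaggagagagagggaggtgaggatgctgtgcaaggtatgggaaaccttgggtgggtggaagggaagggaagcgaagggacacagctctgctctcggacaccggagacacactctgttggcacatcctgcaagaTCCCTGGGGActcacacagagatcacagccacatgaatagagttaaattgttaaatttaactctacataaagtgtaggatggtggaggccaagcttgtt
Fcer2a: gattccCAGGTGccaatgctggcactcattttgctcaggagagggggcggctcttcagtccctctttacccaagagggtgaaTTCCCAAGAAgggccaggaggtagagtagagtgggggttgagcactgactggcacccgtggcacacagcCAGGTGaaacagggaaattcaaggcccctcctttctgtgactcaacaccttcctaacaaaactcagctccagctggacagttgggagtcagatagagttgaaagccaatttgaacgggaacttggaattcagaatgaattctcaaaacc
Both strands were searched in 32851 windows of all genes. The STAT6 letters stood in 6.95% of them, the EBF core in 0.904% and the E-box in 20.2%. The E-box was also in windows of Cd79a and Cr2. The octamer ATGCAAAT (1.74% of all windows) and the seed match ATGTAGC (2.11%) stood in none of the 9 member windows, which cover 7 of the 9 genes. These matches are letters only, and no data on binding at these starts were used.

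The neighbours of the members in the pathway were described with 4 lists: other coreceptors, kinases, adaptors and effector enzymes, and brakes. None of the 65 genes tested in them passed in limma. DESeq2 called 2, Cd180 (adjusted p 0.0355) and Cbl (adjusted p 0.0269). Median log2 fold changes were 0.00 for the coreceptors, 0.17 for the kinases, 0.07 for the adaptors and 0.11 for the brakes, and without KO 1 and KO 3 they were -0.02, 0.11, 0.02 and 0.03. After adjusting for the span and GC percent of genes the medians were 0.04, 0.11, 0.0085 and 0.014, so those of the adaptors and brakes came close to 0. The members' median was 0.15 after this adjustment, against 0.12 before it. Among all genes tested, 7.74% had an unadjusted p under 0.05 with higher and 7.39% with lower values in KO, and the groups did not overlap for 4.18% higher and 3.79% lower in KO.

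Of 18 other coreceptors and inhibitory receptors, 16 were tested, and 8 had positive and 8 negative log2 fold changes. Unadjusted p was under 0.05 for 2 higher and 1 lower in KO. Cd180, a Toll-like receptor homologue, averaged 1466 ± 434 (SD, n = 4) in KO and 947 ± 52.2 (SD, n = 4) in Flox, a log2 fold change of 0.59 that was 0.28 without KO 1 and KO 3. Ceacam1, an inhibitory adhesion receptor, had a log2 fold change of 0.55 and 0.24 without KO 1 and KO 3. Siglecg, a relative of Cd22, had 0.10, and 0.13 without them. After the span and GC adjustment Cd180 had 0.52, Ceacam1 0.56 and Siglecg 0.15.

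All 8 listed kinases were tested, and 7 had positive values, 2 of them with an unadjusted p under 0.05. Syk, the first kinase recruited by the CD79 chains, averaged 2993 ± 145 (SD, n = 4) in KO and 2639 ± 165 (SD, n = 4) in Flox, with a log2 fold change of 0.18 (limma adjusted p 0.3144), which was 0.15 without KO 1 and KO 3 and 0.089 after the span and GC adjustment. Fyn, a Src family kinase, had 0.38 (0.28 without KO 1 and KO 3, 0.22 after the span and GC adjustment). Csk, which restrains Src kinases, had 0.12 (0.065 without those libraries, 0.13 after the adjustment). Among the 26 adaptors and effectors, 18 values were positive, and unadjusted p was under 0.05 for 3 higher and 1 lower in KO. Prkcb, the protein kinase C downstream of phospholipase C, averaged 2775 ± 118 (SD, n = 4) in KO and 2390 ± 93.4 (SD, n = 4) in Flox, with no overlap and a log2 fold change of 0.22 (limma adjusted p 0.2579). It was 0.17 without KO 1 and KO 3 and 0.025 after the span and GC adjustment. Dapp1, a phosphoinositide-binding adaptor, had -0.19, also without overlap, -0.16 without KO 1 and KO 3 and -0.27 after the adjustment. Rasgrp3, an activator of Ras, had 0.28, and 0.16 both without KO 1 and KO 3 and after the adjustment. The adaptor Shc1 had 0.21, 0.23 without KO 1 and KO 3 and 0.28 after the adjustment.

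Brakes on the receptor gave 10 positive values of 15 tested (16 listed), with an unadjusted p under 0.05 for 2 higher and 1 lower in KO. Cbl, a ubiquitin ligase, had 1726.0, 1348.4, 1743.6 and 1459.7 normalized counts in KO 1 to 4, against 1247.2, 1217.2, 819.8 and 845.1 in Flox 1 to 4. No KO library overlapped the Flox libraries. The log2 fold change was 0.62 (SE 0.16, limma adjusted p 0.2375), 0.47 without KO 1 and KO 3 and 0.50 after the span and GC adjustment. Ptpn6 had 0.15 without overlap, 0.091 without KO 1 and KO 3 and 0.18 after the span and GC adjustment. Pag1, a membrane adaptor for Csk, had 0.17 without overlap, 0.12 without KO 1 and KO 3 and 0.026 after the span and GC adjustment. Dok1, an adaptor for inhibitory signalling, had -0.48 (limma adjusted p 0.2593), -0.22 without KO 1 and KO 3 and -0.34 after the adjustment.

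**Figure D3:**
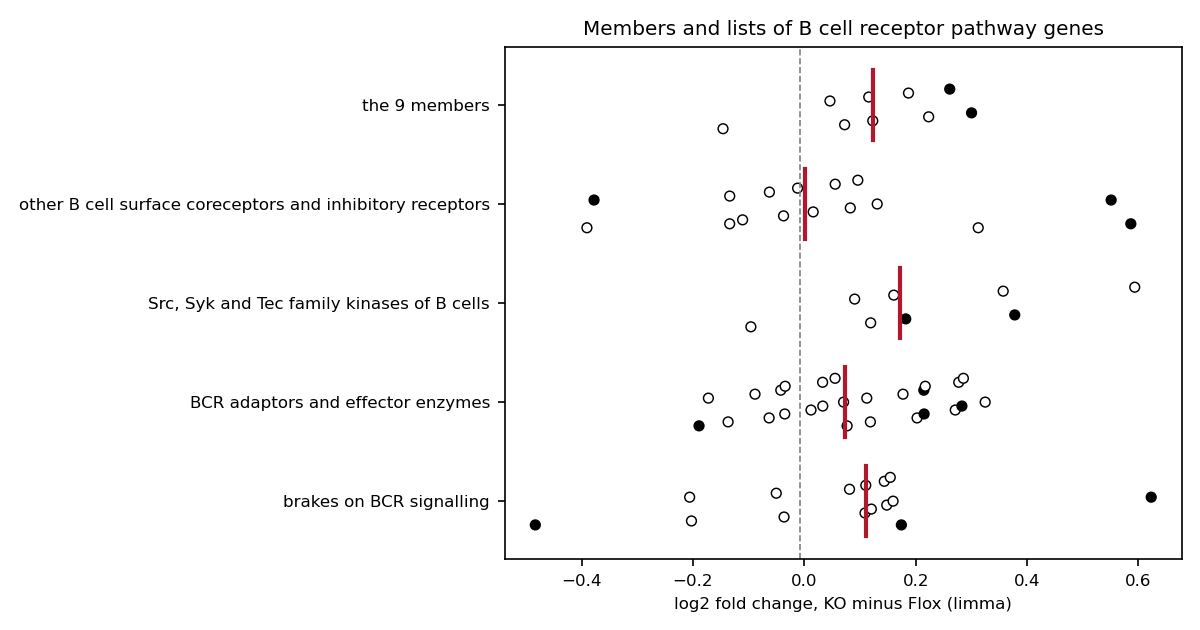
Log2 fold change, KO minus Flox (horizontal axis), of the 9 members and of the tested genes of each list; filled points have an unadjusted limma p under 0.05, red bars are medians and the dashed line is the median of all genes tested, -0.01. Members have a median of 0.12 and the other coreceptors 0.00, and Cd79b is the 1 member below 0.

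Regions with Ago2 CLIP coverage were then counted in the members from the deposited comparison of that coverage. It divides covered RNA into 5-nt bins, gives each a difference between conditions, and joins bins of one hidden state into regions with a score. State 0 holds negative differences, state 1 no difference and state 2 positive differences. A change of state begins a new region, so 1 unbroken covered stretch can count as several regions. The numbers of regions are therefore not numbers of binding sites. The authors pooled the libraries of a condition, and the conditions are not named in the file, so no error between libraries and no direction by genotype can be given. Regions lay on the strand of the genes: 589 overlapped the members on their own strand, 10 on the opposite strand and 1 after the members were shifted by 1000000 nt. Of the 589, 335 had state 1, 181 state 0 and 73 state 2. State 0 made up 71.3% of the differing regions in the members and 78.1% of those in the whole comparison.

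All 9 members had at least 1 region, as did 85.5% of the genes tested. Fcer2a had 166 regions, Cd22 149, Ms4a1 105, Btk 63, Cd72 33, Cd79a 29, Cd79b 28, Fcgr2b 15 and Cr2 1, against a median of 14 over the genes tested. Such counts move with expression and gene length, whose part was not tested. Covered bins took up 89.4% of the span of Fcer2a, 73.8% of Cd22, 62.4% of Cd79b, 43.2% of Ms4a1, 42.7% of Cd79a, 27.4% of Cd72, 9.92% of Btk, 3.68% of Fcgr2b and 0.213% of Cr2. The single Cr2 region covered 85 nt and had state 1.

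**Figure D4:**
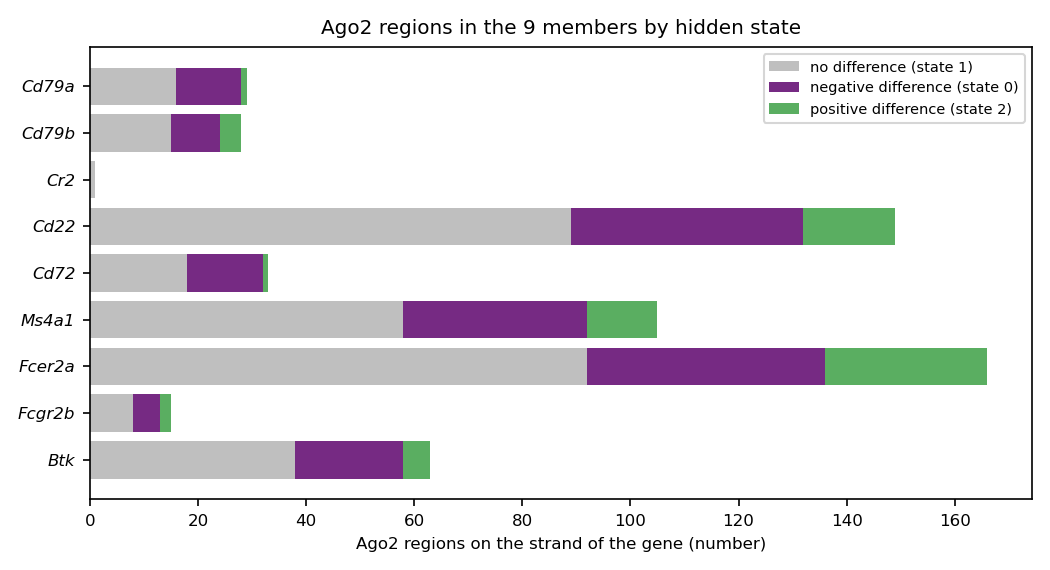
Number of Ago2 regions (horizontal axis, from 0) on the strand of each member, divided into no difference (grey), negative difference (purple) and positive difference (green). Fcer2a has 166 regions and Cr2 has 1, and in each member with differing regions the negative ones outnumber the positive ones.

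Regions with the highest scores lay in Fcer2a. A high score did not mean a large difference, as the top Cd22 region had a score of 15.5 and a mean difference of 0.53. The lowest probability of a bin was 0.35 in the top Fcer2a region and 0.85 in that Cd22 region. At chr8:3682010-3682054, 295 nt upstream of the annotated 3′ end, a positive region had a score of 83.3 and a mean difference of 0.19. A second, at chr8:3681730-3681794, crossed the annotated end (score 78.2, mean difference 0.32), and another stood 1025 nt upstream (score 41.4, mean difference 0.34). RefSeq places the 3′ end of this gene 1457 nt further downstream, which puts these regions 1752, 1482 and 2482 nt from it. At a score of 5 or more, Fcer2a had 44 differing regions, Ms4a1 21, Cd22 19, Cd79a 8, Cd79b 8, Btk 4, Cd72 2, Fcgr2b 2 and Cr2 0. Thus 8 of 9 members had at least 1, against 61.1% of the genes tested. The part of expression and gene length in the scores and in this comparison was not tested.

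In Ms4a1 the leading pair were neighbours of opposite sign. A positive region at chr19:11250600-11250664 (score 40.2, mean difference 0.30) was followed after a single bin by a negative one at chr19:11250670-11250719 (score 37.0, mean difference -0.28), both about 1000 nt from the 3′ end. Cd79b also had both signs, with a positive region at chr11:106311850-106311909, 538 nt from the 3′ end (score 31.4), and a negative one at chr11:106314425-106314484 near the start of the gene (score 31.4, mean difference -0.33). In Cd79a the 3 top regions were negative, led by chr7:24901650-24901689 (score 20.4, mean difference -0.33), 528 nt from the annotated 3′ end and 189 nt from that of RefSeq. Cd79a had 12 negative regions and 1 positive one.

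In Cd22 the 3 top regions lay far from the 3′ end, led by chr7:30874920-30874969, 9542 nt from the 3′ end (score 15.5, mean difference 0.53). The top Fcgr2b region, chr1:170960765-170960784, was positive (score 29.9, mean difference 0.37). It lay 2157 nt from the annotated 3′ end and 216 nt from the RefSeq end. Also positive was the top region of Btk at chrX:134542385-134542414, 63 nt from the 3′ end (score 11.0, mean difference 0.34). Cd72 had a negative top region at chr4:43447870-43447934 (score 7.6, mean difference -0.42), 1440 nt from the annotated 3′ end and 178 nt from the RefSeq end. Within 1000 nt of the annotated 3′ end lay 76 of the 589 regions, 16 each in Cd79b and Ms4a1, 14 in Fcer2a, 12 in Cd79a and 11 in Cd22. Counted from the RefSeq ends they were 74, with 3 in Fcer2a, 8 in Cd79a, 7 in Cd72 in place of 0 and 8 in Fcgr2b in place of 2. Whether a region lies in an exon, an intron or a UTR was not analysed here.

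**Figure D5:**
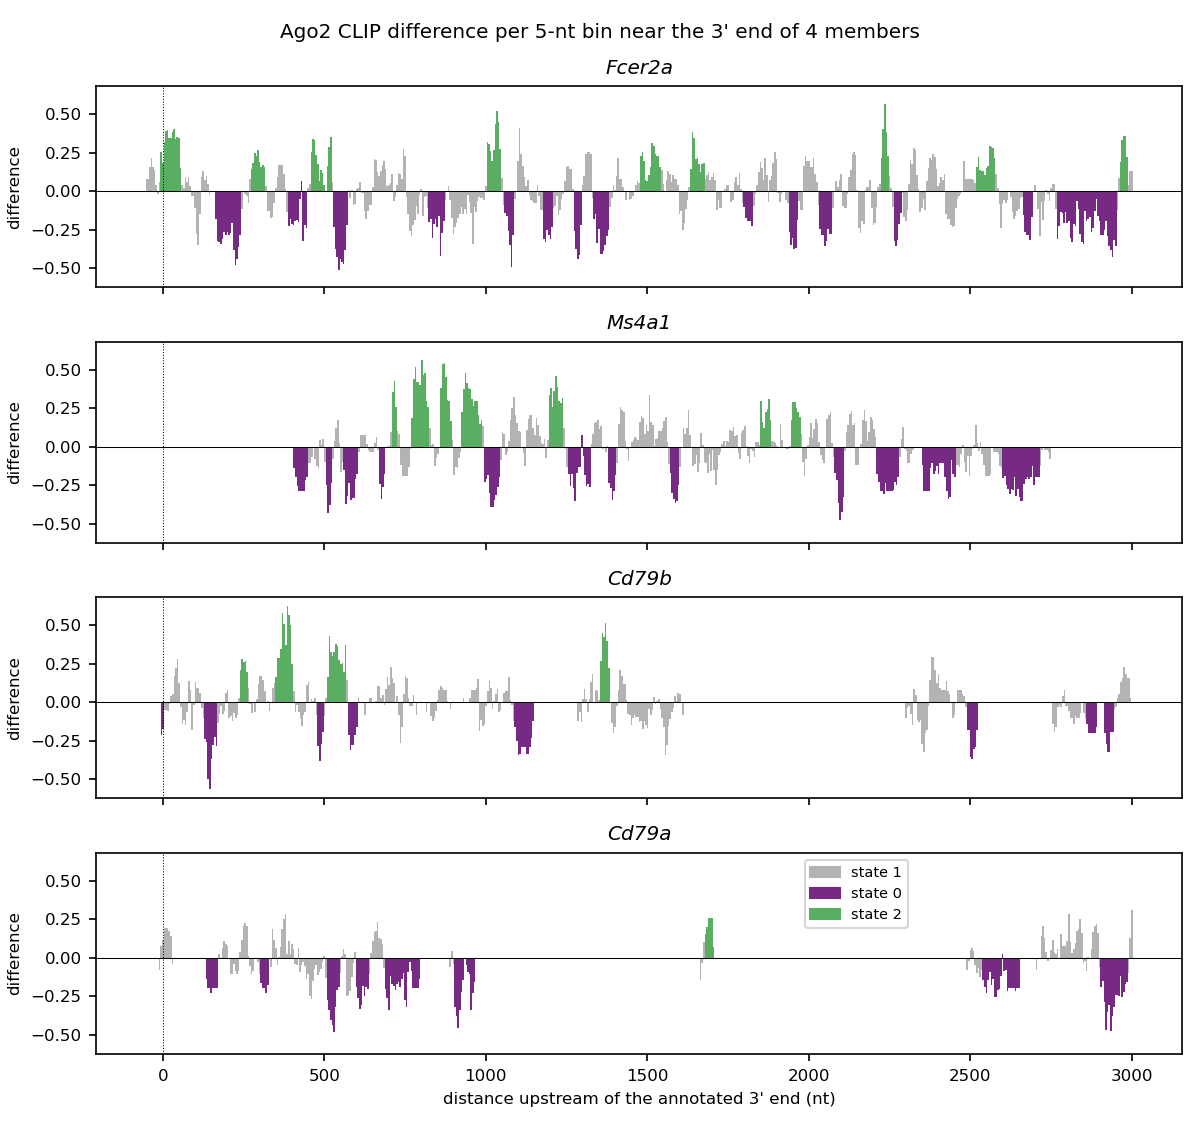
Difference in Ago2 CLIP per 5-nt bin (vertical axis, the authors' scaled value with no unit given) against distance upstream of the annotated 3′ end in nt, for Fcer2a, Ms4a1, Cd79b and Cd79a, coloured by hidden state. Positive bins reach the 3′ end in Fcer2a, positive and negative stretches alternate near 1000 nt in Ms4a1, and the bins in a differing state within 1000 nt of the Cd79a end are negative.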

How the data were processed

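RNA was measured by RNA-seq (4 KO, 4 Flox) and Ago2 HITS-CLIP (4 KO, 4 Flox); groups come from the sample titles. The submitters' processing notes name cutadapt, Bowtie2, SAMtools, STAR, DESeq2, DESeq and mm9. The expression table's gene positions are on GRCm38 instead: 99.8% of 20501 protein-coding genes matched by symbol overlap their RefSeq GRCm38.p6 span. Its main values are a deposited signal, gene counts divided by 1 size factor per library, and once recovered 99.9977% of them or more in each library were whole reads within 0.1 read. The authors also deposited log2 variance-stabilized values and log2 fold changes, a fold change as a ratio, p-values with FDR, and the GC percent of each gene. The deposited CLIP comparison gives, per the file headers, a state (another kind of value, 0 to 2), a probability as a fraction and a difference, which is a score without a stated unit; the authors' summary adds a region score. Its 4 columns of unnamed conditions were not used.

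The main test was limma 3.58.1 (R 4.3.3), limma-trend on log2(value + 1), genes with a mean of at least 10, both groups, two-sided, no block, 11.17 total df, with Benjamini-Hochberg adjustment over 13091 genes. It was first run on simulated counts, with the same spread setting for every gene. They held no libraries set apart as KO 1 and KO 3 are, so that run does not measure its errors here. Alternatives numbered 19, with edgeR 4.0.16 and DESeq2 1.42.0 on recovered reads; one of them, the stabilized values, was added after the data were seen. Levels were not compared between genes, as no transcript lengths were used. Named genes were the 9 members, the 4 genes of each list with the smallest limma p, the 2 genes most like each member by Pearson's r, and up to 3 top-scoring regions a member; Lck and other markers stand only for their lists. Members and lists were chosen with earlier results of these data known. A planned search of protein motifs was not run, and protein and genome sequence were not used here. A few genes that this rule names are not reported here.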

Additional observations from a re-analysis of the deposited data

Results flagged for a closer look

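A group of 4 libraries was checked for a value far from the other 3 in each of the 9 members and both groups, 18 checks in all by Dixon's test. By chance about 1 in 20 groups is picked out this way. Ms4a1 in KO 4, at 13496.8 normalized counts, stood below the other KO libraries (15418.0 to 15561.4). Fcer2a in Flox 2, at 31435.1 normalized counts, stood below the other Flox libraries (32993.6 to 33235.1).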

How the results depend on the processing

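No member passed the adjusted threshold in limma or under any of the 19 alternatives. With 9 genes past the threshold in all, there were 213 with DESeq2, 16 with quality weights and 8 to 17 when each library was left out in turn. Members with an unadjusted p under 0.05 numbered 2 in limma, 1 without a filter, with a minimum mean of 50 or with a pseudocount of 10, 0 to 2 when each library was left out in turn (0 without Flox 2) and 0 without KO 1 and KO 3 together. After the span and GC adjustment they numbered 3. With quality weights and without Flox 1 they were Btk and Cd22. Limma p was then 0.047 and 0.049 for Btk, and 0.080 and 0.073 for Fcer2a. DESeq2 called 2 genes of the pathway lists, against 0 in limma. Some signs turned: the log2 fold change of Cd72 ran from -0.020 (without KO 4) to 0.22 when each library was left out, and was -0.004065 without KO 1 and KO 3. That of Fcgr2b ran from -0.085 (without KO 3) to 0.22, below 0 also without KO 4 and without Flox 2, and was -0.14 without KO 1 and KO 3. The cause was not tested. Same-numbered KO and Flox libraries correlated between -0.09 and 0.00 in their deviations, so the numbers were not taken to pair samples; with the replicate number as a block 11 genes passed and 2 members had an unadjusted p under 0.05. A region score of at least 5 left 108 of the 589 Ago2 regions. Reads in the members, from 129 upward, limit Cr2 most, and the pooled CLIP values have no error between libraries.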
